A study of Mus musculus with 20 samples.

Results

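The motile cilia axoneme genes are the 61 genes of the deposited table whose names belong to the Dnah, Dnai, Cfap or Rsph families, together with Foxj1, Tmem212, Ccdc39, Ccdc40 and Hydin. They were chosen by name from 30691 named genes, and no measured value entered the choice. RNA was sequenced from whole lungs of VIP knockout (VIPKO) mice in hypoxia (10% oxygen, 4 weeks; 5 libraries), VIPKO mice in normoxia (21% oxygen; 4 libraries), wild-type (WT) C57BL/6 mice in hypoxia (10% oxygen, 4 weeks; 5 libraries) and WT mice in normoxia (21% oxygen; 6 libraries). The normoxia groups are labelled with 4 weeks as well. Vasoactive intestinal peptide (VIP) is released by nerves and dilates airways and vessels. VIPKO mice are called a knockout in their titles and a knockdown in their genotype field. The labels give no age for the groups and do not tie each library to its own animal, and p-values therefore reflect only how far these libraries scatter.

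Motile cilia beat on multiciliated cells of the airway lining and move mucus out of the lung. The core of a motile cilium, the axoneme, is a ring of microtubule doublets around a central pair. Dynein arms on the doublets are the motors, radial spokes and the central apparatus pass signals to them, and Foxj1 is the transcription factor that switches on the genes of motile cilia. Loss of many of these genes causes primary ciliary dyskinesia in humans. In mouse lung many of these genes are known mainly from ciliated airway cells, a minor cell type of the whole organ. Since they were chosen by name, this need not hold for each of them. The cells from which the RNA of each gene came were not tested.

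Values are the signal of the deposited table, in which the submitters had normalized the counts between libraries. The estimated depth was 4.96 to 56.7 M reads per library, with a median of 17.8 M, and it was 4.96 M in WT hypoxia 4. Vip itself had a signal of 1.08 to 106 (median 2.17) in VIPKO hypoxia, 1.16 to 5.54 (median 4.79) in VIPKO normoxia, 0 to 6.77 (median 2.38) in WT hypoxia and 0 to 93.0 (median 3.64) in WT normoxia, so its level did not separate the genotypes and does not check their labels. Mitochondrial ribosomal RNA had a summed signal of 4506 to 9415 in VIPKO hypoxia and 12030 to 27210 in VIPKO normoxia. It was 396.5 to 7058 in WT hypoxia and 97.7 to 2075 in WT normoxia. Whether these differences came from the make-up of the libraries or from the mice was not tested. Skeletal muscle genes reached a summed signal of 39210 in WT hypoxia 5 and thymic epithelial genes reached 20260 in VIPKO hypoxia 3. VIPKO normoxia 2, VIPKO normoxia 3 and VIPKO hypoxia 2 stood apart from the other libraries in earlier results of these data.

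Of the 61 genes, 60 passed the filter on low values (a signal of at least 10 in at least 4 libraries). Rsph6a, a radial spoke head gene known from sperm, did not pass. It had a signal of 0 to 3.24 in VIPKO hypoxia, 0 to 3.20 in VIPKO normoxia, 0 to 11.7 in WT hypoxia and 0 to 1.68 in WT normoxia, with the highest value in the shallowest library, where 3 reads were worth 11.7. The axoneme genes took 0.137% to 0.188% of all signal in VIPKO hypoxia, 0.176% to 0.232% in VIPKO normoxia, 0.163% to 0.311% in WT hypoxia and 0.118% to 0.193% in WT normoxia. Per kilobase of annotated exon, Foxj1 had the highest mean signal over the 20 libraries at 749.8, followed by Tmem212 at 432.8, the inner arm motor Dnah6 at 222.5, the outer arm motor Dnah5 at 196.6 and the central apparatus gene Cfap65 at 186.9. At the low end stood Dnah8 at 10.1, Dnah17 at 8.12, Dnah14 at 4.13 and Rsph6a at 0.738 per kilobase. Dnah8 and Dnah17 are outer arm motors known from sperm flagella.

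In normoxia, VIPKO lungs had more signal for most axoneme genes than WT lungs. By limma with Benjamini-Hochberg adjustment over 21658 genes, 15 of the 60 rose and 0 fell at an adjusted p under 0.05. Among all tested genes, 4.69% rose and 3.96% fell (8.65% in either direction). At an unadjusted p under 0.05 stood 34 of the 60, against 25.3% of all genes. The median log2 fold change of the 60 genes was 0.46, or 1.38-fold, against 0.01 for all tested genes, and 56 of the 60 had a positive one. All VIPKO values lay above all WT values for 9 genes and below them for 1, where 4.75% and 5.13% of all genes did so. In whole lung, a change in the number of ciliated cells, a change in RNA per ciliated cell and RNA from other cells cannot be told apart.

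Hypoxia in WT lungs likewise gave more signal for most axoneme genes than normoxia. Of the 60 genes, 18 rose and 1 fell, against 7.88% and 6.77% of all tested genes (14.7% in either direction). At an unadjusted p under 0.05 stood 35 of the 60, against 33.0% of all genes. The median log2 fold change was 0.42, or 1.34-fold, against -0.01 for all tested genes, and 56 of 60 were positive. The hypoxic WT values lay above all normoxic WT values for 6 genes and below them for 1, where 4.13% and 3.81% of all genes did so. These 2 comparisons use the same 6 WT normoxia libraries. Both called Cfap299, Cfap43, Cfap54, Dnah5, Rsph1 and Tmem212 higher. These are 40% of the calls in VIPKO normoxia and 33.3% of the rises in WT hypoxia. Whether all tested genes overlap to a like extent was not tested, so these shares are not a trait of the axoneme genes.

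Hypoxia gave no rise of the axoneme genes past the threshold in VIPKO lungs. There, 0 of 60 genes changed with hypoxia at an adjusted p under 0.05, where 0.614% of all genes rose and 0.383% fell (0.997% in either direction), while 18 of 60 had an unadjusted p under 0.05 against 13% of all genes. The VIPKO hypoxia values lay below all VIPKO normoxia values for 3 genes (Cfap69, Cfap65 and Hydin) and above them for 0, where 2.44% and 2.7% of all genes did so. The median log2 fold change was -0.31 and 53 of 60 were negative. Between VIPKO and WT lungs in hypoxia 1 gene fell and 0 rose, where 0.9% of all genes fell and 0.716% rose (1.62% in either direction). At an unadjusted p under 0.05 stood 18 of 60, against 18.8% of all genes. The VIPKO values lay below all WT values for 2 genes (Rsph14 and Cfap410), where 1.95% of all genes did so, and above them for 0, where 1.81% did so. The median log2 fold change was -0.27 with 50 of 60 negative. The interaction, which is the hypoxia effect in VIPKO minus that in WT, was negative in 57 of 60 genes with a median of -0.78. Of the 60 interactions, 1 passed the adjusted threshold, that of Tmem212, where 0.148% of all genes passed in that direction, while 47 of 60 had an unadjusted p under 0.05 against 14.2% of all genes. The mean signal was highest in VIPKO normoxia for 29 of 60 genes and in WT hypoxia for 27, and lowest in WT normoxia for 41.

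**Figure D1:**
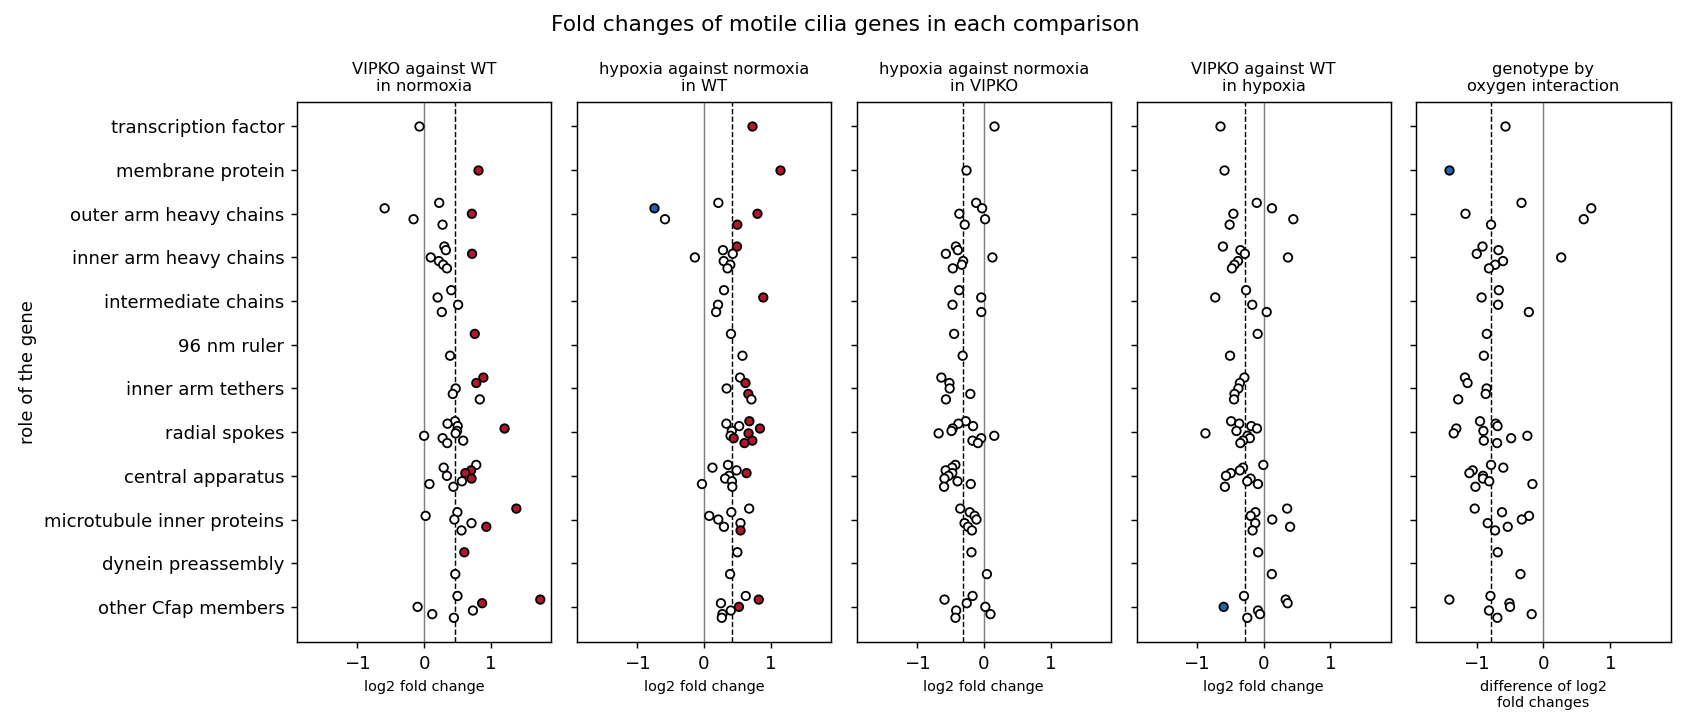
Log2 fold changes (x axis) of the 60 tested axoneme genes grouped by role (y axis), with 1 panel for each comparison. Each circle is 1 gene, red where it rose and blue where it fell at an adjusted p under 0.05, and the dashed line is the median of the 60 genes, which is positive in the first 2 panels (0.46 and 0.42) and negative in the other 3.

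Single libraries carried unequal parts of these shifts. The mean over the 60 genes of the log2 difference from the WT normoxia mean was 0.12, 0.19, 0.51, 0.22 and -0.11 in VIPKO hypoxia 1 to 5. It was 0.15, 0.59, 0.56 and 0.61 in VIPKO normoxia 1 to 4, and 0.93, 0.10, 0.61, 0.24 and 0.22 in WT hypoxia 1 to 5. In WT normoxia the lowest was -0.33, the median -0.01 and the highest 0.25. VIPKO normoxia 1 lay within the WT normoxia range and the other 3 VIPKO normoxia libraries lay above it. WT hypoxia 1 had the highest value of all 20 libraries for 46 of 60 genes, WT normoxia 4 the lowest for 31, and VIPKO normoxia 1 the lowest of its group for 53. Leaving out 1 library moved the count of changed genes. For VIPKO against WT in normoxia it was 3 without VIPKO normoxia 2, 6 without VIPKO normoxia 3, 3 without VIPKO normoxia 4 and 21 without VIPKO normoxia 1, in place of 15. The share of all genes called moved too, to 1.66%, 4.16%, 2.05% and 11.8% in these fits. For hypoxia in WT the count was 7 without WT hypoxia 1, 6 without WT hypoxia 3 and 9 without WT normoxia 4, in place of 19, and the share of all genes was 8.11%, 6.38% and 9.59%. That count was 25 without WT hypoxia 2, 25 without WT hypoxia 4 and 23 without VIPKO hypoxia 3. The share of all genes was then 14%, 21.8% and 19.7%. VIPKO against WT in hypoxia had 9 called genes without VIPKO hypoxia 3 and 3 without WT hypoxia 5, in place of 1. In these fits 6.25% and 1.52% of all genes were called. That comparison had 0 without any 1 of VIPKO hypoxia 1, 2 and 5 and WT hypoxia 1 and 3. The share of all genes was then 0.874%, 0.163%, 0.662%, 0.472% and 0.351%. The interaction had 10 without VIPKO hypoxia 3, 10 without WT hypoxia 4, 7 without VIPKO normoxia 1 and 2 without WT hypoxia 5, in place of 1, where 1.69%, 2.52%, 0.71% and 0.333% of all genes were called. It had 0 without any 1 of VIPKO hypoxia 1, 2, 4 and 5 or VIPKO normoxia 2, 3 and 4. The same held without any 1 of WT hypoxia 1 and 3 or WT normoxia 2, 3, 4 and 6. In these fits 0.0185% to 0.251% of all genes were called. Hypoxia in VIPKO had 1 without VIPKO normoxia 1, in place of 0, where 1.14% of all genes were called. Without the 3 libraries that stood apart, 0 genes were called in VIPKO against WT in normoxia and the median log2 fold change was 0.34; that fit called 0 of all genes, where 3056 of 21204 had an unadjusted p under 0.05. When the signal of mitochondrial ribosomal RNA was added as a covariate, again 0 of the 60 and 0 of all genes were called (2101 of 21658 at an unadjusted p under 0.05), and the median was 0.62. For hypoxia in WT these fits called 14 and 13 of the 60 genes, with medians of 0.42 and 0.47, and 13.7% and 7.11% of all genes. The normoxia groups did not overlap in that RNA, so its part and that of the genotype cannot be told apart in this comparison.

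**Figure D2:**
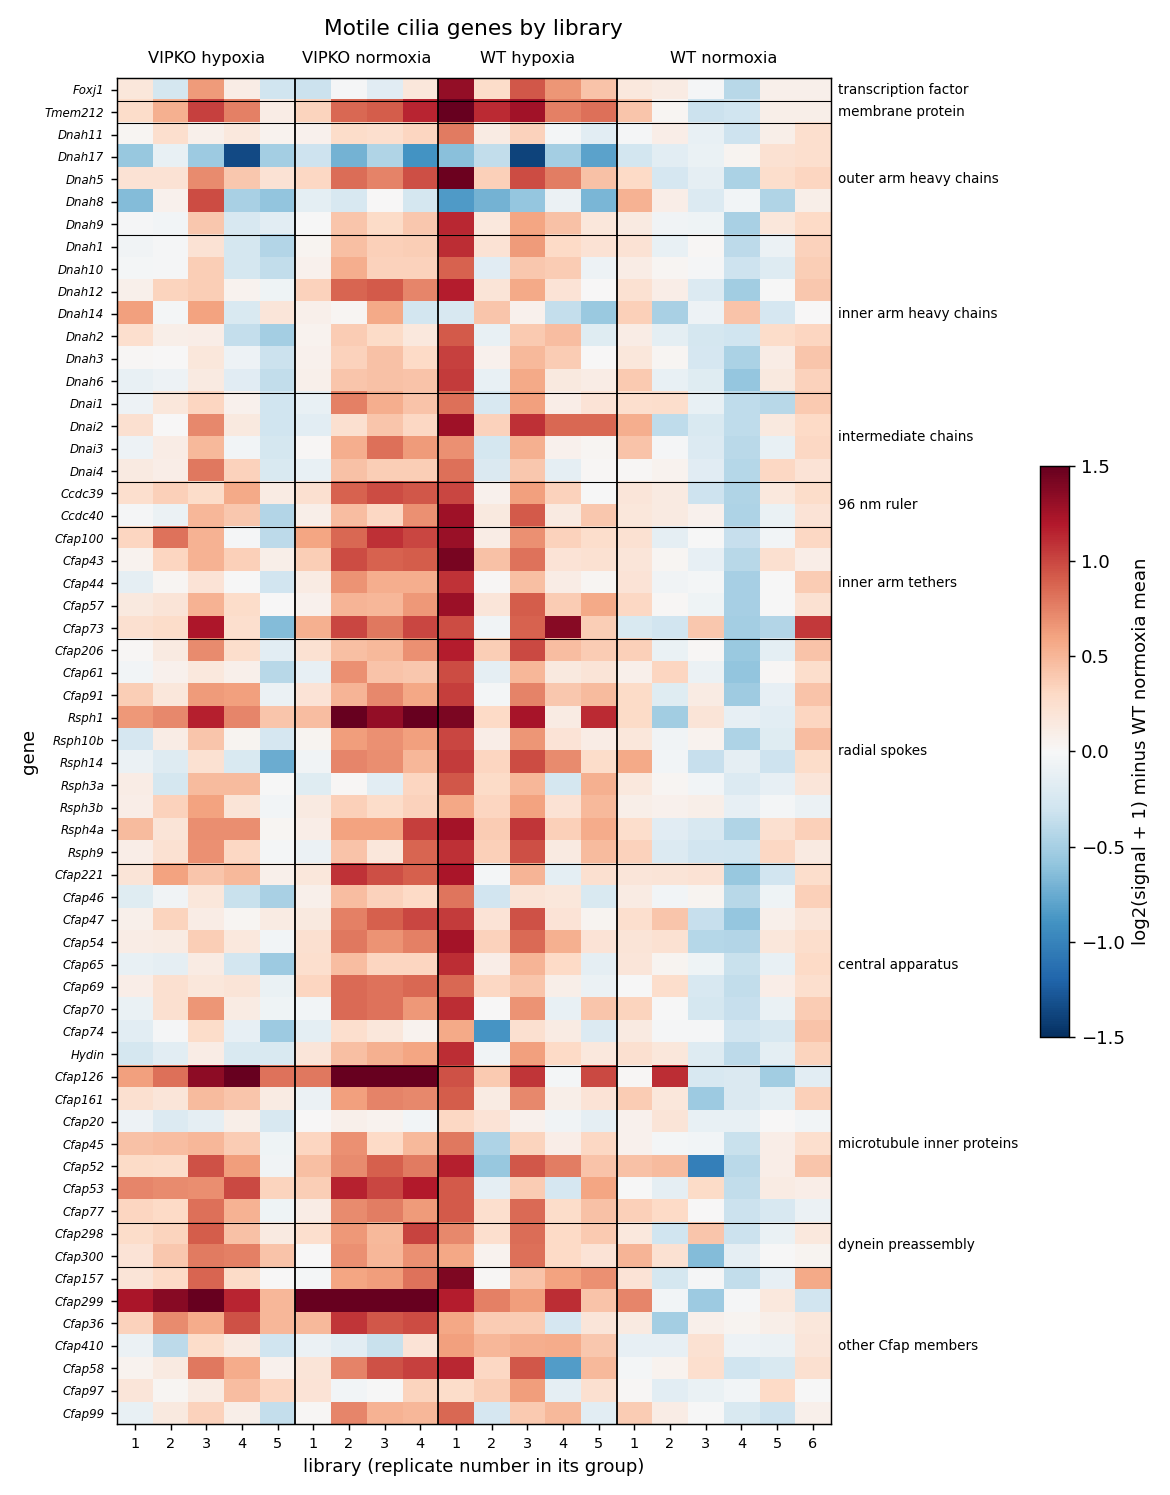
Log2(signal + 1) of the 60 tested axoneme genes (rows, grouped by role) in the 20 libraries (columns), as the difference from the WT normoxia mean of each gene; the colour scale ends at -1.5 and 1.5. Most rows are red in VIPKO hypoxia 3 (58 of 60 genes above the WT normoxia mean), VIPKO normoxia 2 to 4 (55, 55 and 56 genes) and WT hypoxia 1 and 3 (57 and 58 genes), and more faintly in WT normoxia 1 and 6 (53 and 54 genes), and the rows of Dnah17 and Dnah8 are mostly blue in WT hypoxia.

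Foxj1 lies on chr11:116330704-116335399 (GRCm38, minus strand). Its signal was 1856, 1373, 2576, 1790 and 1338 in VIPKO hypoxia 1 to 5, 1327, 1633, 1474 and 1854 in VIPKO normoxia 1 to 4 and 4139, 1993, 3142, 2620 and 2219 in WT hypoxia 1 to 5. The WT normoxia libraries ran from 1236 to 1845, with a median of 1743. All WT hypoxia values lay above all WT normoxia values, while the VIPKO normoxia values overlapped the WT normoxia values. In WT lungs Foxj1 rose with hypoxia by 0.72 on the log2 scale (SE 0.18, adjusted p = 0.0143). In VIPKO against WT normoxia its log2 fold change was -0.08 (SE 0.19, adjusted p = 0.828), and that value was positive, at 0.03 to 0.32, in 3 of the alternative fits. In VIPKO lungs the hypoxia fold change was 0.15 (SE 0.20, adjusted p = 0.776), and in VIPKO against WT hypoxia it was -0.65 (SE 0.19, adjusted p = 0.0722). The interaction was -0.57 (SE 0.26, adjusted p = 0.336).

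Foxj1 was also set against the axoneme genes within each library. The ratio of Dnah5 signal to Foxj1 signal, chosen after the values were seen and given as a description, was 1.36 to 1.88 in VIPKO hypoxia, 2.03 to 2.46 in VIPKO normoxia, 1.32 to 1.46 in WT hypoxia and 1.01 to 1.56 in WT normoxia. The 4 VIPKO normoxia ratios lay above those of all the other 16 libraries. The ratio of Rsph1 to Foxj1 did not separate them in this way, since it was 0.0938 to 0.133 in VIPKO hypoxia, 0.115 to 0.193 in VIPKO normoxia, 0.0460 to 0.108 in WT hypoxia and 0.0424 to 0.0819 in WT normoxia, and VIPKO normoxia 1 at 0.115 lay below VIPKO hypoxia 2 at 0.133. The log2 signal of Foxj1 minus the mean log2 signal of the other tested axoneme genes was 2.17 to 2.77 in VIPKO hypoxia, 1.89 to 2.18 in VIPKO normoxia, 2.80 to 3.07 in WT hypoxia and 2.46 to 2.75 in WT normoxia. VIPKO normoxia lay below WT normoxia and overlapped VIPKO hypoxia, while WT hypoxia lay above WT normoxia. The GC content was 61.38% for Foxj1 and 47.07% for Dnah5. Over all genes, the rank correlation of log2 fold change with GC content was -0.29 in VIPKO normoxia. After a correction for length and GC content, the fold change of Foxj1 there was 0.18. The ratios were not corrected in this way, and the part of GC content in them was not tested.

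**Figure D3:**
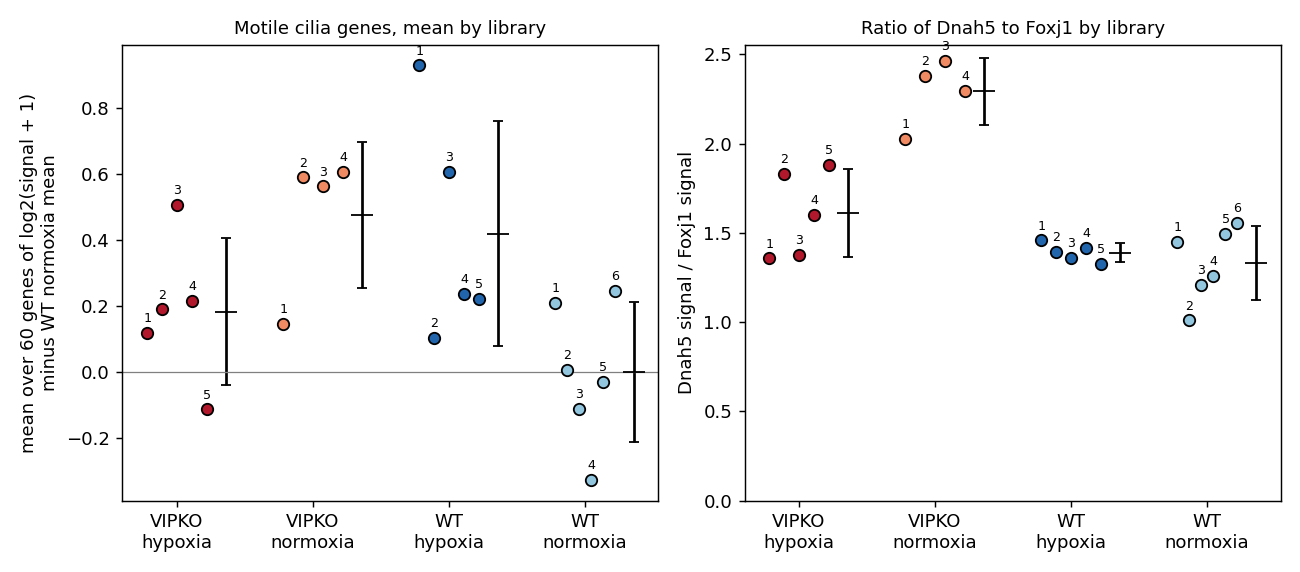
Left, the mean over the 60 tested axoneme genes of the log2 difference from the WT normoxia mean in each library; right, the ratio of Dnah5 signal to Foxj1 signal. Points are libraries with their replicate number, and the cross bar and whiskers are the group mean and SD; VIPKO normoxia 2 to 4 sit at 0.56 to 0.61 on the left and all 4 VIPKO normoxia libraries sit at 2.03 or above on the right.

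Tmem212 encodes a membrane protein used as a marker of ciliated cells, and lies on chr3:27866066-27896368 (minus strand). Its signal was 234.1, 278.6, 392.7, 327.1 and 208.6 in VIPKO hypoxia 1 to 5, 242.9, 351.3, 362.9 and 428.5 in VIPKO normoxia 1 to 4 and 642, 421.3, 463.5, 326.5 and 342.7 in WT hypoxia 1 to 5. Among WT normoxia libraries the values were 154.3 to 257.6 (median 200.7). Every WT hypoxia value lay above every WT normoxia value, and 1 of the 4 VIPKO normoxia values lay within the WT normoxia range. The gene rose with hypoxia in WT by 1.14 on the log2 scale (2.20-fold, SE 0.19, adjusted p = 0.00239), the smallest adjusted p among the 60 genes in that comparison, and it rose in VIPKO against WT in normoxia by 0.81 (SE 0.21, adjusted p = 0.0211). In VIPKO lungs the hypoxia fold change was -0.27 (SE 0.21, adjusted p = 0.611). Its interaction of -1.41 (SE 0.29, adjusted p = 0.0397) was the only one of the 60 below the threshold. That call was lost in 18 of 33 alternatives, among them the fits that left out 1 library of VIPKO hypoxia (1, 2, 4 or 5), VIPKO normoxia (2, 3 or 4), WT hypoxia (1, 2 or 3) or WT normoxia (2, 3, 4 or 6).

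Outer arm dynein heavy chains are the motors that set beat frequency. Dnah5 (chr15:28203752-28472052, plus strand), the gene most often mutated in human primary ciliary dyskinesia with missing outer arms, averaged 2792 ± 447 in VIPKO hypoxia, 3616 ± 668 in VIPKO normoxia, 3943 ± 1313 in WT hypoxia and 2222 ± 501 in WT normoxia (SD; n = 5, 4, 5 and 6 libraries). It rose in VIPKO normoxia by 0.71 (SE 0.20, adjusted p = 0.0307) and in WT hypoxia by 0.80 (SE 0.19, adjusted p = 0.0113), and its interaction was -1.17 (adjusted p = 0.0748). Dnah9, which works in the outer part of the cilium, rose in WT hypoxia by 0.50 (adjusted p = 0.0454) and stood at 0.28 in VIPKO normoxia (adjusted p = 0.339). Dnah11, its partner in the inner part, stood at 0.23 in VIPKO normoxia and 0.22 in WT hypoxia (adjusted p = 0.320 and 0.251).

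The outer arm motors known from sperm had fold changes in the other direction. Dnah17 (chr11:118021723-118130634, minus strand) had 67.1 to 160 in VIPKO hypoxia, 91.98 to 139 in VIPKO normoxia, 65.0 to 134 in WT hypoxia and 143 to 206 in WT normoxia. Every WT normoxia library lay above every library of WT hypoxia and of VIPKO normoxia. The gene fell with hypoxia in WT by 0.74 on the log2 scale (SE 0.20, adjusted p = 0.0224), the only fall among the 60 genes in that comparison. In VIPKO against WT normoxia its fold change was -0.59 (SE 0.22, adjusted p = 0.0938). Dnah8 had a fold change of -0.58 in WT hypoxia (adjusted p = 0.0912) and -0.16 in VIPKO normoxia (adjusted p = 0.740), and its 5 VIPKO hypoxia values ran from 189 to 587, with the highest in the library that also held thymic genes. Of a list of 12 sperm and testis genes, 3 passed the filter, and all 3 had positive fold changes in both VIPKO normoxia and WT hypoxia (medians 0.64 and 0.64). Of these, Meig1, a gene needed to form sperm, rose in VIPKO normoxia by 1.34 (adjusted p = 0.00822). Prm1, a sperm protamine gene, had a signal of at most 1.20 in every library.

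Inner arm dyneins shape the bend of the cilium. Of the 7 inner arm heavy chains, Dnah12 rose in VIPKO normoxia by 0.72 (SE 0.19, adjusted p = 0.0277), with 2066 ± 344 in VIPKO normoxia and 1268 ± 276 in WT normoxia (SD, n = 4 and 6). Dnah1 rose in WT hypoxia by 0.49 (SE 0.16, adjusted p = 0.0432), with 869 ± 256 in WT hypoxia and 606 ± 109 in WT normoxia (SD, n = 5 and 6). Dnah2, Dnah3, Dnah6 and Dnah10 passed the threshold in neither comparison and lay between 0.22 and 0.34 in VIPKO normoxia and between 0.28 and 0.39 in WT hypoxia. Dnah14 had 0.10 and -0.14. In VIPKO against WT hypoxia, Dnah1 stood at -0.61 (adjusted p = 0.0641).

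The intermediate chains hold the outer and the double-headed inner arms. Dnai2 (chr11:114727408-114757889, plus strand), an outer arm intermediate chain, had 315.7, 266.4, 441.2, 295.6 and 215.8 in VIPKO hypoxia 1 to 5, 237.6, 315.8, 355.7 and 330.7 in VIPKO normoxia 1 to 4 and 643.6, 338.4, 571.4, 485.9 and 484.3 in WT hypoxia 1 to 5. WT normoxia libraries had 203.8 to 389.9, with 260.2 as the median. WT hypoxia stood above the other groups apart from WT hypoxia 2, which lay inside the WT normoxia range. The rise with hypoxia in WT was 0.89 on the log2 scale (SE 0.20, adjusted p = 0.00963), and it was called in each of the 34 alternatives. In VIPKO normoxia the fold change was 0.20 (adjusted p = 0.588), and in VIPKO against WT hypoxia it was -0.72 (SE 0.21, adjusted p = 0.0734). Its outer arm partner Dnai1 had 0.41 in VIPKO normoxia and 0.30 in WT hypoxia, and the inner arm chains Dnai3 and Dnai4 had 0.51 and 0.27 in VIPKO normoxia and 0.21 and 0.18 in WT hypoxia, none of them past the threshold.

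Ccdc39 and Ccdc40 form the molecular ruler that sets the repeat along each doublet and places the spokes and inner arms. Ccdc39 (chr3:33812362-33844310, minus strand) had 491.3, 525.1, 498.2, 608.1 and 447.1 in VIPKO hypoxia 1 to 5, 487.1, 756.5, 807.7 and 786.7 in VIPKO normoxia 1 to 4 and 824.5, 429.2, 628.7, 522.1 and 410.6 in WT hypoxia 1 to 5. The WT normoxia libraries ran from 301.2 to 497.8, with a median of 454.8. Of the 4 VIPKO normoxia libraries, 3 lay above every WT normoxia library. Ccdc39 rose in VIPKO normoxia by 0.76 (SE 0.19, adjusted p = 0.0196) and had 0.40 in WT hypoxia (SE 0.18, adjusted p = 0.119), -0.44 with hypoxia in VIPKO (adjusted p = 0.344) and -0.09 in VIPKO against WT hypoxia (adjusted p = 0.832), a value that was positive at 0.06 without WT hypoxia 1.

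Ccdc40 (chr11:119228572-119265238, plus strand) had 505.7, 481.1, 723.9, 676.2 and 375.2 in VIPKO hypoxia 1 to 5, 544.3, 706.4, 634 and 820.8 in VIPKO normoxia 1 to 4 and 1232, 566.8, 965.7, 559.8 and 678.5 in WT hypoxia 1 to 5. Among WT normoxia libraries the values were 368.9 to 590.2 (median 545.5). Its groups overlapped in every comparison. The fold change was 0.39 in VIPKO normoxia (SE 0.21, adjusted p = 0.264), 0.58 in WT hypoxia (SE 0.20, adjusted p = 0.0568), -0.32 with hypoxia in VIPKO (adjusted p = 0.561) and -0.50 in VIPKO against WT hypoxia (adjusted p = 0.199). The interactions of Ccdc39 and Ccdc40 were -0.85 (SE 0.26, adjusted p = 0.151) and -0.89 (SE 0.30, adjusted p = 0.180).

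Among the 5 tethers and anchors of the inner arms, Cfap43 rose in both VIPKO normoxia (0.78, SE 0.19, adjusted p = 0.0192) and WT hypoxia (0.62, SE 0.18, adjusted p = 0.0289). It averaged 1147 ± 202 in VIPKO normoxia, 1069 ± 420 in WT hypoxia and 666 ± 105 in WT normoxia (SD, n = 4, 5 and 6). Cfap100, part of an inner arm regulatory complex, rose in VIPKO normoxia by 0.89 (SE 0.23, adjusted p = 0.0211), and Cfap57 rose in WT hypoxia by 0.66 (SE 0.18, adjusted p = 0.0209). Cfap44, which partners Cfap43, had 0.47 and 0.34 in these comparisons (adjusted p = 0.116 and 0.179), and Cfap73, the partner of Cfap100 and a low gene at 10.8 to 46.7 units of signal, had 0.83 and 0.71 (adjusted p = 0.155 and 0.152). All 5 had a negative interaction, with a median of -1.14.

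Radial spokes reach from the doublets to the central pair. In WT hypoxia 6 of the 10 tested spoke genes rose, namely Rsph1, Rsph3b, Rsph4a, Rsph9, Rsph14 and Cfap206. In VIPKO normoxia 1 of the 10 rose, Rsph1; whether these counts differ was not tested. Rsph1 (chr17:31255019-31277383, minus strand), a spoke head gene mutated in human primary ciliary dyskinesia, had 148 to 248 in VIPKO hypoxia, 153 to 320 in VIPKO normoxia, 121 to 296 in WT hypoxia and 76.4 to 139 in WT normoxia. It rose in VIPKO normoxia by 1.20 (2.30-fold, SE 0.26, adjusted p = 0.00970), where all 4 values lay above the WT normoxia range, and in WT hypoxia by 0.84 (SE 0.24, adjusted p = 0.0276), where the groups overlapped. Rsph4a, another spoke head gene, rose in WT hypoxia by 0.72 (adjusted p = 0.0221) and had 0.58 in VIPKO normoxia (adjusted p = 0.0877).

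Rsph3b rose in WT hypoxia by 0.44 (SE 0.10, adjusted p = 0.0116) and its WT groups did not overlap. Rsph3a, a near-identical copy of it on the same chromosome, had 0.40 (adjusted p = 0.113), and reads may have been divided between the 2 copies, so their separate values are uncertain. Rsph14 had the most negative fold change among the 60 genes in VIPKO against WT hypoxia, at -0.87 (SE 0.23, adjusted p = 0.0552), with 60.97 ± 14.4 in VIPKO hypoxia and 113 ± 27.8 in WT hypoxia (SD, n = 5 each) and no overlap. With hypoxia in VIPKO it also had the most negative value, at -0.68 (adjusted p = 0.226). The spoke genes Cfap61, Cfap91 and Rsph10b had 0.34 to 0.53 in both main comparisons without passing the threshold.

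The central apparatus is the structure around the central pair. Of its 9 genes, Cfap47, Cfap54 and Cfap69 rose in VIPKO normoxia, by 0.70, 0.62 and 0.71 (adjusted p = 0.0497, 0.0415 and 0.0139), and Cfap54 also rose in WT hypoxia by 0.64 (adjusted p = 0.0211). Cfap69 had the smallest p of the 60 genes for hypoxia in VIPKO (-0.59, SE 0.17, adjusted p = 0.121), with 432 ± 38.8 in VIPKO hypoxia and 656 ± 109 in VIPKO normoxia (SD, n = 5 and 4) and no overlap. Cfap65 likewise did not overlap between these groups, with 898 to 1422 in VIPKO hypoxia and 1555 to 1801 in VIPKO normoxia. The remaining 4 genes passed no threshold. Cfap221, Cfap70, Cfap46 and Cfap74 had 0.78, 0.57, 0.29 and 0.08 in VIPKO normoxia (adjusted p = 0.0636, 0.132, 0.320 and 0.854) and 0.36, 0.42, 0.13 and -0.03 in WT hypoxia (adjusted p = 0.310, 0.186, 0.625 and 0.935). The interaction of Cfap54 was -1.11 (adjusted p = 0.0688), and that of Cfap74 was -0.17 (adjusted p = 0.836).

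Hydin (chr8:110266977-110610253, plus strand), whose loss in mice leaves a defective central apparatus and causes hydrocephalus, had 1327, 1420, 1720, 1352 and 1352 in VIPKO hypoxia 1 to 5, 1807, 2178, 2294 and 2391 in VIPKO normoxia 1 to 4 and 3420, 1528, 2439, 1951 and 1778 in WT hypoxia 1 to 5. WT normoxia libraries had 1208 to 2002, with 1613 as the median. Every VIPKO hypoxia library lay below every VIPKO normoxia library, although the fold change of -0.59 (SE 0.18, adjusted p = 0.150) did not pass the threshold. The other fold changes of Hydin were 0.44 in VIPKO normoxia (SE 0.18, adjusted p = 0.123), 0.42 in WT hypoxia (SE 0.17, adjusted p = 0.0834) and -0.58 in VIPKO against WT hypoxia (SE 0.17, adjusted p = 0.0823), with an interaction of -1.02 (SE 0.25, adjusted p = 0.0748).

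**Figure D4:**
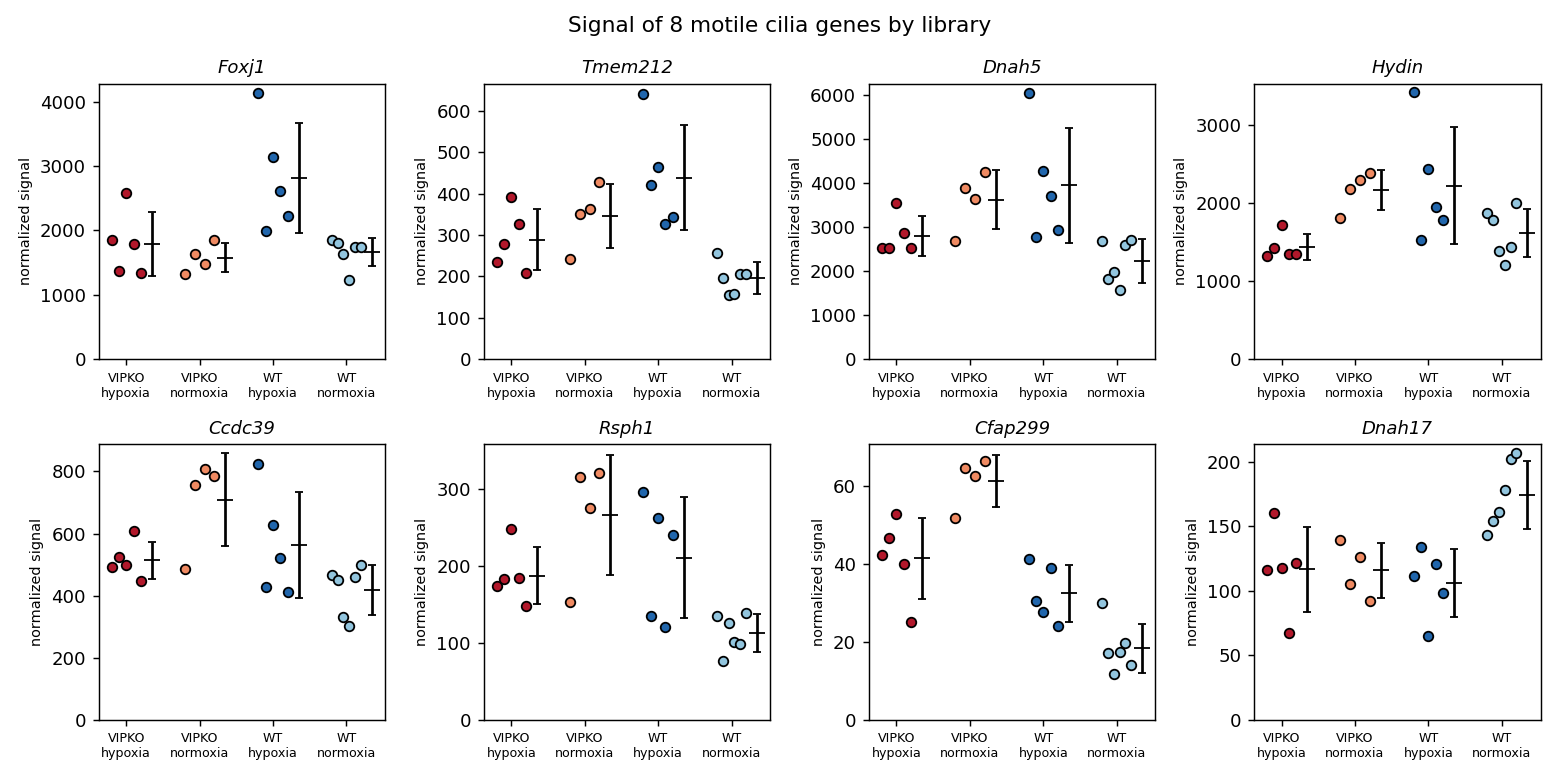
Normalized signal (y axis, from 0) of 8 axoneme genes in each library, by group, with the group mean and SD as cross bar and whiskers. The mean of Foxj1 is highest in WT hypoxia (2823), that of Cfap299 in VIPKO normoxia (61.2) and that of Dnah17 in WT normoxia (174).

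Microtubule inner proteins line the inside of the doublets. Of 7 such genes, Cfap126 and Cfap53 rose in VIPKO normoxia, by 1.38 (2.60-fold, SE 0.28, adjusted p = 0.00763) and 0.93 (SE 0.23, adjusted p = 0.0182). Cfap126, also called Flattop and known for its part in placing basal bodies, averaged 255 ± 61.1 in VIPKO normoxia and 103 ± 51.3 in WT normoxia (SD, n = 4 and 6), and 1 WT normoxia library reached 205. Cfap77 rose in WT hypoxia by 0.55 (adjusted p = 0.0487). Cfap20, at the inner junction, had 0.02 in VIPKO normoxia and 0.08 in WT hypoxia with SEs of 0.09, among the smallest fold changes and errors of the 60 genes. Cfap45, Cfap52 and Cfap161 had 0.45 to 0.71 in VIPKO normoxia and 0.21 to 0.55 in WT hypoxia, with adjusted p-values of 0.125 to 0.396. Of the 2 genes needed to assemble dyneins in the cytoplasm, Cfap298 rose in VIPKO normoxia by 0.60 (adjusted p = 0.0464) and Cfap300 had 0.47 (adjusted p = 0.193).

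Of the remaining 7 Cfap genes, Cfap299 (chr5:98329304-98802047, plus strand) had 42.3, 46.7, 52.9, 39.8 and 25.2 in VIPKO hypoxia 1 to 5, 51.7, 64.4, 62.4 and 66.4 in VIPKO normoxia 1 to 4 and 41.2, 30.5, 27.7, 38.9 and 23.99 in WT hypoxia 1 to 5. The WT normoxia libraries ran from 11.7 to 29.8, with a median of 17.2. VIPKO normoxia lay above every WT normoxia library. The rise in VIPKO normoxia was the largest of the 60 genes, 1.74 on the log2 scale (3.33-fold, SE 0.26, adjusted p = 0.00194), and the rise in WT hypoxia was 0.82 (SE 0.24, adjusted p = 0.0295). It is a low gene, resting on an estimated 7 to 134 reads per library.

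Cfap36 (chr11:29221532-29247409, minus strand) had 337.4, 432.3, 388.4, 515.8 and 372.8 in VIPKO hypoxia 1 to 5, 371.5, 557.4, 504.9 and 522.8 in VIPKO normoxia 1 to 4 and 397.4, 345.2, 344.5, 221.6 and 299.3 in WT hypoxia 1 to 5. Among WT normoxia libraries the values were 185.4 to 297.5 (median 279.9). It rose in VIPKO normoxia by 0.87 (1.82-fold, SE 0.17, adjusted p = 0.00584) with no overlap, and had 0.25 in WT hypoxia (SE 0.16, adjusted p = 0.260).

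Cfap410 (chr10:77978524-77986905, plus strand), whose human counterpart is mutated in a retinal and skeletal ciliopathy, showed another pattern. Its signal was 227.9, 185.0, 294.5, 267.3 and 197.8 in VIPKO hypoxia 1 to 5, 228.7, 217.2, 192.1 and 279.4 in VIPKO normoxia 1 to 4 and 372.0, 343.5, 355.5, 357.6 and 323.3 in WT hypoxia 1 to 5. WT normoxia libraries had 223.6 to 285.2, with 229.4 as the median. The WT hypoxia libraries lay above all the other 15. Cfap410 rose with hypoxia in WT by 0.52 (SE 0.12, adjusted p = 0.0124) and fell in VIPKO against WT hypoxia by 0.60 (SE 0.13, adjusted p = 0.0265), the only gene of the 60 called there. The second call was lost in 9 of 34 alternatives, including those without VIPKO hypoxia 1, 2 or 5 and without WT hypoxia 1 or 3. Cfap58, Cfap97, Cfap99 and Cfap157 passed no threshold, with 0.12 to 0.73 in VIPKO normoxia and 0.27 to 0.63 in WT hypoxia.

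Fold changes were also set against transcript length and GC content. Over the 57 tested genes with an annotated exon length, the rank correlation of log2 fold change with length was -0.49 in VIPKO normoxia and -0.46 in WT hypoxia, against -0.15 and 0.01 over 21241 genes. The 29 shorter genes had a median of 0.56 and the 28 longer ones 0.33 in VIPKO normoxia, and 0.54 and 0.36 in WT hypoxia. With GC content the rank correlation was -0.34 over the axoneme genes and -0.29 over all genes in VIPKO normoxia, and 0.16 and 0.19 in WT hypoxia. These are descriptions across genes, which share their libraries and are not independent. After a correction of each library for length and GC content, chosen after seeing the data, 10 of 57 genes were called in VIPKO normoxia, where 2.39% of all genes were, and 16 in WT hypoxia, where 16.9% were, with medians of 0.53 and 0.40.

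**Figure D5:**
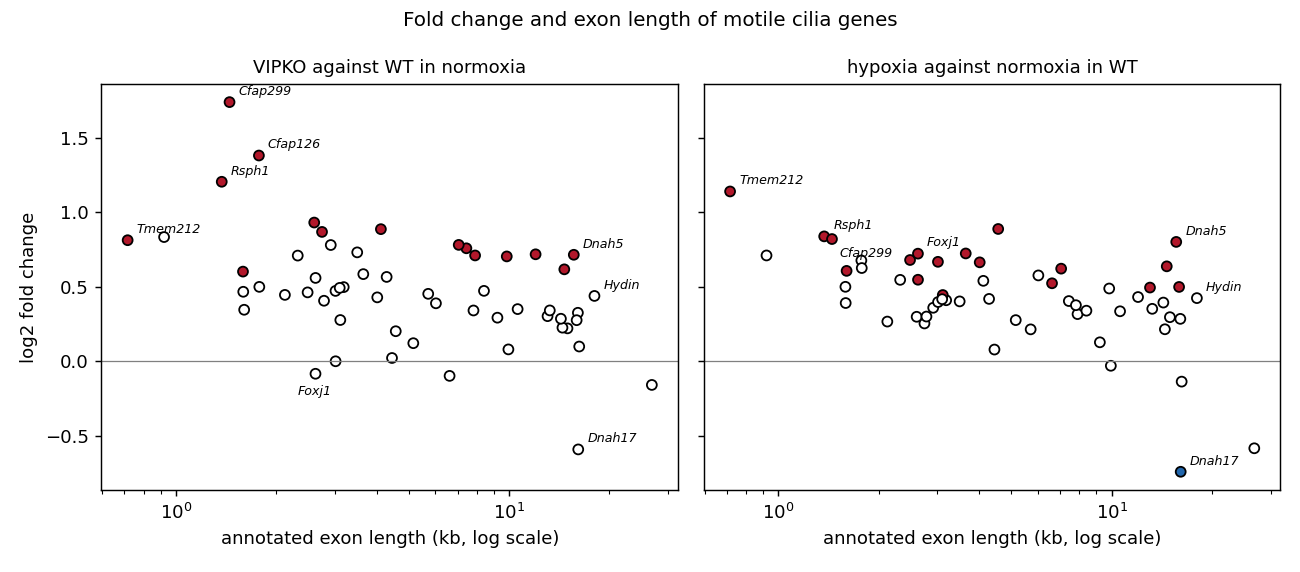
Log2 fold change (y axis) against annotated exon length in kilobases (x axis, log scale) of the 57 tested axoneme genes with a length, for VIPKO against WT in normoxia and hypoxia against normoxia in WT. Each circle is 1 gene, red where it rose and blue where it fell at an adjusted p under 0.05; short genes such as Cfap299 (1.74) and Tmem212 (1.14) reach the largest values, and Dnah17 lies lowest in both panels (-0.59 and -0.74).

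Genes of motile cilia outside the 61 were called in the same comparisons. Among all tested genes, 4.69% rose in VIPKO normoxia and 7.88% in WT hypoxia. With hypoxia in VIPKO 0.614% rose and 0.383% fell, and in VIPKO against WT hypoxia 0.716% rose and 0.9% fell. For the interaction 0.148% were called in the negative direction. Whether the lists below differ from these shares was not tested. Among 29 other ciliated cell markers, 9 rose in VIPKO normoxia and 11 in WT hypoxia, with medians of 0.61 and 0.55 and 0 falls in either, while 0 were called in VIPKO hypoxia against VIPKO normoxia (3 had an unadjusted p under 0.05). Spa17, a sperm and cilia protein, rose in VIPKO normoxia by 1.81 (adjusted p = 0.00197), and Dynlrb2, a dynein light chain, rose by 0.87 and 0.96 (adjusted p = 0.0138 and 0.00471). Of 10 genes of the nexin-dynein regulatory complex, which links the doublets, 2 and 4 rose, and Fbxl13 fell with hypoxia in VIPKO by 0.96 (adjusted p = 0.0466), with 54.3 ± 11.04 in VIPKO hypoxia and 107 ± 20.3 in VIPKO normoxia (SD, n = 5 and 4). Among the other lists, of 10 docking and light chain genes, 2 and 6 rose. In VIPKO against WT hypoxia, the assembly factor Dnaaf3 and the central pair gene Stk36 fell, by 0.71 and 0.62 (adjusted p = 0.0439 and 0.0388). Of 10 further central pair genes 2 and 2 rose, Ak8 by 0.95 and 1.22 (adjusted p = 0.00919 and 0.00155), and 3 interactions outside the 61 passed the threshold in these lists, Ak8 at -1.59 (adjusted p = 0.0262), Fbxl13 at -1.49 (adjusted p = 0.0410) and the transport gene Ift46 at -0.61 (adjusted p = 0.0262). Of 14 dynein assembly factors 2 and 3 rose, and of 29 genes of intraflagellar transport and the BBSome, which build all cilia, 8 and 5 rose. Dnah7a, Dnah7b and Dnah7c, inner arm motors with near-identical sequences whose values are uncertain for that reason, had their calls in VIPKO normoxia, Dnah7a at 0.70 and Dnah7c at 0.59 (adjusted p = 0.0475 and 0.0469).

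Regulators of the making of multiple cilia were also measured. Of 15 tested genes, 0 were called in VIPKO normoxia (3 had an unadjusted p under 0.05) and 1 in WT hypoxia, which is near or below the shares of all genes that rose (4.69% and 7.88%) or had such a p (25.3%). In WT hypoxia Trp73 rose by 0.64 (adjusted p = 0.0253) with 385 ± 90.1 in WT hypoxia and 248 ± 53.5 in WT normoxia (SD, n = 5 and 6). The medians of this list were 0.18 and 0.02. Trp73 encodes the transcription factor p73, which acts before Foxj1 in multiciliated cells.

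Genes of some other airway cell types were also called in these comparisons. Over all tested genes, 4.69% rose in VIPKO normoxia (8.65% called in either direction) and 7.88% in WT hypoxia (14.7%). Of 13 goblet and large airway secretory genes, 10 rose in VIPKO normoxia and 10 in WT hypoxia, with medians of 2.99 and 3.20. Their summed signal was 5750 to 24910 in VIPKO hypoxia, 4350 to 19560 in VIPKO normoxia, 8943 to 26760 in WT hypoxia and 572.1 to 7509 in WT normoxia. In 2 of the groups the same libraries were highest or lowest in goblet sum and in axoneme mean. VIPKO hypoxia 3 was the highest of its group in both (log2 sum 14.6, axoneme mean 0.51) and VIPKO hypoxia 5 the lowest (12.5 and -0.11), and VIPKO normoxia 1 was the lowest of its group in both (12.1 and 0.15, against 14 to 14.3 and 0.56 to 0.61 in the other 3). In WT hypoxia the highest goblet sum was in number 4 (14.7, axoneme mean 0.24) and the highest axoneme mean in number 1 (0.93, goblet sum 13.6). In WT normoxia the highest goblet sum was in number 5 (12.9, axoneme mean -0.03) and the highest axoneme mean in number 6 (0.25, goblet sum 9.71). Of 10 club cell genes 2 and 3 rose, with medians of 0.32 and 0.52. Their summed signal was 280800 to 423800 in VIPKO hypoxia, 338700 to 557300 in VIPKO normoxia, 222600 to 594900 in WT hypoxia and 214200 to 293100 in WT normoxia. Of 6 tested basal cell genes 0 were called in either comparison. In WT hypoxia 4 had an unadjusted p under 0.05, against 33.0% of all genes. Krt5, which defines these cells, had a median of 1.05 (highest 427) in VIPKO hypoxia, 1.75 (highest 4.27) in VIPKO normoxia, 11.7 (highest 2853) in WT hypoxia and 0 (highest 1.20) in WT normoxia. The WT hypoxia median equals the worth of 3 reads in WT hypoxia 4, the shallowest library. The summed basal signal was the highest of its group in VIPKO hypoxia 3 (12350) and in WT hypoxia 5 (14300). These libraries also held thymic and skeletal muscle genes respectively, and the part of other tissue in the basal values was not tested. Type 1 alveolar genes were called in 0 and 1 of 10 and type 2 alveolar genes in 2 and 8 of 10. The part of these cell types in the axoneme results was not tested.

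A sequence feature shared by some of the genes is the X-box, the site bound by RFX transcription factors that act with Foxj1 in ciliated cells. In the RefSeq promoter table (GRCm38.p6), 46 of the 61 genes had a promoter, and the 250 bases before the start were searched on both strands for a relaxed form of it. It was present in 6 of the 46 (13%) and in 2.07% of 27025 genes. The forkhead motif TGTTTAC was present in 3 (6.52%), against 3.54% of genes, and TGTTTGT in 1 (2.17%), against 6.73%. A match is a run of letters and not a measured binding site. The promoters of Hydin, Cfap206 and Cfap44 are shown because their matches lie outside the span of the annotated gene. Each line ends 1 base before the RefSeq start and capitals mark the match.
Hydin, chr8:110266857-110266976 (plus strand): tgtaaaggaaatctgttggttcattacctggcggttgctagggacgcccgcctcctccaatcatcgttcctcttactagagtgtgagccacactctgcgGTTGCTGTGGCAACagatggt
Cfap206, chr4:34730207-34730326 (minus strand): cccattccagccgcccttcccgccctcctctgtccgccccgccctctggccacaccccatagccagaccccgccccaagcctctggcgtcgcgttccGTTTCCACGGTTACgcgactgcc
Cfap44, chr16:44394679-44394798 (plus strand): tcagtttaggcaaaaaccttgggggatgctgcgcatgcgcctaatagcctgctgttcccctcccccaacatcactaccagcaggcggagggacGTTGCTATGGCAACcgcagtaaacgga

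In these 3 promoters the match lay 8 to 21 bases before the start in Hydin, 10 to 23 in Cfap206 and 14 to 27 in Cfap44. The other 3 matches were GTTGCTATGGTAAC at chr1:172521111-172521124 (Cfap45), GTTGCCCGGGCAAC at chr16:90935024-90935037 (Cfap298) and GTCACCAGCGCAAC at chr11:118129365-118129378 (Dnah17), and they lay inside the span of the annotated gene. Their distances from the RefSeq start were 6 to 19 bases in Cfap45, 175 to 188 in Cfap298 and 146 to 159 in Dnah17. In VIPKO normoxia the 6 genes with a match had log2 fold changes of 0.44 (Hydin), 0.46 (Cfap206), 0.47 (Cfap44), 0.45 (Cfap45), 0.60 (Cfap298) and -0.59 (Dnah17), of which that of Cfap298 passed the threshold. In WT hypoxia Cfap206 rose and Dnah17 fell, and the other 4 lay between 0.21 and 0.50.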

How the data were processed

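RNA from whole lung was made into strand-directed libraries from 1 µg of total RNA, per the labels' protocols. The deposited values are a normalized signal per gene (gene counts normalized by the authors with Partek on mm10, per the submitters' processing notes). Which aligner, annotation and normalization method they used, and whether strand was counted, is not given in the sources used here. Of 30746 rows, 55 without a gene name (at most 0.0187% of the signal) were left out. The step between low values gave an estimated depth of 4.96 to 56.7 M reads. In VIPKO hypoxia 2 only 40.2% of values up to 20 reads lay within 0.05 of a whole read, against 81% or more elsewhere, so no count model was used. Precision is therefore given by the spread between libraries.

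Log2(signal + 1) of the 21658 genes with a signal of at least 10 in at least 4 libraries entered a limma 3.58.1 fit of 4 group means over all 20 libraries in R 4.3.3, the prior variance following a trend. Fold changes are on this scale, which understates changes of low genes. The 5 contrasts were adjusted by Benjamini-Hochberg over all genes, with a threshold of 0.05. In data simulated for VIPKO against WT in normoxia over 21658 genes, 59% of the 2-fold and 85% of the 4-fold changes were recovered and 7.10% of the calls were false. For the interaction these shares were 43%, 67% and 0.901%. The simulation changed 200 genes and drew the scatter of each gene independently, without deviations shared across a library. The real libraries did shift many genes together, so these shares may not hold for them. Loci and exon lengths are from GENCODE vM21 (GRCm38), with 58 of the 61 genes matched, 4 of them by an older symbol. The rule for named genes took Foxj1, Tmem212, Ccdc39, Ccdc40 and Hydin, from each role up to 3 genes with the smallest p, the 4 largest fold changes in each direction, the 4 smallest interaction p-values and the 5 highest levels per kilobase; not every such value is printed for every comparison, and the other genes of the 61 are named as well. Genes of the other lists are given as examples and counts. The genes, the 21 other lists and the tests were chosen with earlier results of these data known. Other pseudocounts, filters, scalings, weights, covariates and left-out libraries were tried, and a length and GC correction was added after seeing the data. Of 27 same-numbered pairs of libraries, 7 had a correlation of deviations over 0.1, the highest at 0.41 and the lowest at -0.289. The numbers were not used as pairs in the main fit.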

Additional observations from a re-analysis of the deposited data

Results flagged for a closer look

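Among 40 groups of per-library values that were screened, 5 held a library far from the rest of its group by Dixon's criterion, which chance alone meets in about 1 of 20 groups. Ccdc39 had 487.1 in VIPKO normoxia 1, the lowest of its group (gap of 0.84 of the group's range). The mean of the axoneme genes in the same library, 0.1456 on the log2 scale relative to WT normoxia, was also far below the other 3 (gap 0.906). Hydin had 1720 in VIPKO hypoxia 3, the highest of its group (gap 0.763). Cfap36 had 185.4 in WT normoxia 2 (gap 0.783) and Foxj1 had 1236 in WT normoxia 4 (gap 0.651), each the lowest of its group. The effect of hypoxia on Tmem212 differed between the genotypes, with an interaction of -1.411 on the log2 scale (limma, adjusted p = 0.0397), and it was higher in hypoxia than in normoxia in WT and not past the threshold in VIPKO.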

How the results depend on the processing

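The median fold change of the axoneme genes kept its sign under every alternative run, at 0.34 to 0.62 for VIPKO against WT in normoxia, 0.27 to 0.56 for hypoxia in WT, -0.42 to -0.20 for hypoxia in VIPKO, -0.42 to -0.12 for VIPKO against WT in hypoxia and -1.04 to -0.63 for the interaction. The counts of called genes, in that order 15, 19, 0, 1 and 1, moved more. Library quality weights gave 33, 39, 1, 11 and 39, where the share of all genes called was 25.2%, 30.4%, 3.31%, 8.89% and 10.3%, against 8.65%, 14.7%, 0.997%, 1.62% and 0.282% without weights. Mitochondrial ribosomal RNA as a covariate gave 0 for VIPKO against WT in normoxia, 0 in hypoxia and 0 for the interaction, and leaving out the 3 libraries that stood apart also gave 0, 0 and 0. Of all genes, 0%, 0.115% and 0% were called with the covariate and 0%, 0.132% and 0% without those libraries. Without the muscle and thymus libraries, VIPKO against WT in hypoxia had 9 and the interaction 13, with 4.95% and 1.41% of all genes. With only the groups compared in the fit, hypoxia in VIPKO had 1 and VIPKO against WT in hypoxia 0, with 0.658% and 0.0493% of all genes. A minimum signal of 50 gave 2 for VIPKO against WT in hypoxia, with 2.84% of all genes. The fit without a variance trend gave 0 for the interaction, with 0.0554% of all genes. Leaving out each library in turn gave 3 to 21, 6 to 25, 0 to 1, 0 to 9 and 0 to 10. The replicate number as a block gave 7 for VIPKO against WT in normoxia, 12 for hypoxia in WT and 0 for the interaction. The share of all genes called was 3.15%, 7.13% and 0%. Of 27 same-numbered pairs, 7 had a correlation of deviations over 0.1 (range -0.289 to 0.41), and 7 of 20 libraries correlated best with their own number. Of 1899 values of single genes under alternatives, 1596 kept direction and call, 267 lost the call, 30 gained it and 6 changed sign. The last were Ccdc39 in VIPKO against WT hypoxia (0.0706 with the covariate and, leaving out each library in turn, -0.191 to 0.0599, the highest without WT hypoxia 1), Foxj1 in VIPKO against WT normoxia (0.0272 with weights, 0.32 with the covariate, 0.18 with the length and GC correction) and Foxj1 for hypoxia in VIPKO (-0.038 with that correction). The cause of these changes was not tested.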
